A study of Mus musculus with 9 samples.

Results

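Translation initiation and elongation factors are the proteins that load ribosomes onto messenger RNA and carry them along it. Here they were taken as all gene symbols that begin with Eif or Eef followed by a digit, leaving out the sex-linked pair Eif2s3x and Eif2s3y. This gave 62 of the 23282 symbols listed for each library, 53 for initiation and 9 for elongation. Kidneys of Bmal1 -/- mice (5 libraries) were compared with kidneys of wildtype mice (4 libraries), all on the C57BL/6 strain. Bmal1, listed under its gene symbol Arntl, encodes the activator of the circadian clock that binds E-box sites together with Clock or Npas2. The knockout is labelled as -/- in the whole animal's genotype, with no promoter or Cre named, and the labels give no hour of sampling, sex, age or deleted exon. They also do not say that each library is a separate animal, so the spread behind every p-value is that among libraries and may be technical. RNA was read by a 3′ tag method (QuantSeq), which gives about a single tag per transcript, so levels of different genes can be compared without their length.

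Protein synthesis begins when eIF2, charged with GTP and the initiator tRNA, joins the small ribosomal subunit together with eIF1, eIF1A, eIF3 and eIF5. The cap-binding complex eIF4F, built from the cap binder eIF4E, the scaffold eIF4G and the helicase eIF4A, brings the messenger to that subunit. Elongation then needs eEF1A to deliver charged tRNAs, the eEF1B complex to recharge eEF1A with GTP, and eEF2 to move the ribosome on. Both phases are also switched after the protein is made: stress kinases phosphorylate eIF2α, 4E-BP proteins hold eIF4E back, and eEF2 kinase inactivates eEF2. The kidney's tubule cells renew large amounts of transport protein, and levels of messenger RNA reported here do not measure the activity of any of these factors.

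The deposited value of a gene in a library is log2(x + 1), where x is a read count that was adjusted towards a common library size. Of the 62 members, 59 reached an x of 10 in at least 4 libraries and were tested, 51 for initiation and 8 for elongation. The other 3 were the germline cap binder Eif4e1b, listed at 0 in all 9 libraries, the muscle and nerve form of the elongation factor Eef1a2, and Eif3j1, which with its near-identical relative Eif3j2 encodes an eIF3 subunit. Eef1a2 was at 0 to 0.01 in knockout and 0 to 1.61 in wild type, and Eif3j1 at 0 to 2.51 in knockout and 0 to 2.36 in wild type. Kap, a transcript of the proximal tubule, marked the libraries as kidney and was at 18.34 to 18.54 in knockout and 18.82 to 19.41 in wild type. Arntl itself was at 5.65 to 5.99 in knockout and 6.26 to 7.06 in wild type; the deleted part is not stated, so a 3′ tag outside it checks nothing.

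The libraries also differed in makeup. Ribosomal RNA precursor, listed as Rn45s, made up 6.83% to 14.4% of adjusted reads in knockout and 5.07% to 11.3% in wild type, and the highest wild-type share was that of wild type 2. None of 4 globin genes passed the test, and their summed share was 0.796% to 3.16% in knockout and 0.548% to 1.36% in wild type. All 4 urothelial markers rose, and their summed share was 0.00185% to 0.00668% in knockout against 0.000278% to 0.00105% in wild type. Of 3 macrophage markers Csf1r fell, and the list's share was 0.00475% to 0.00547% in knockout and 0.00619% to 0.00718% in wild type. Of the hepatocyte pair Alb fell, at 4.488 to 5.206 in knockout and 6.488 to 7.199 in wild type. No lymphocyte marker was abundant enough to be tested. The summed share of 9 kidney segment markers, mostly Kap, was 3.34% to 3.53% in knockout and 4.49% to 5.59% in wild type. Kap itself did not pass (adjusted p = 0.0604), and the 2 of the 9 that passed were higher, the distal tubule transporter Slc12a3 by 0.52 and the collecting duct water channel Aqp2 by 0.66. In whole kidney, fewer cells of a type and less RNA per cell cannot be told apart. The part of these differences in the results that follow was not tested, apart from the fit with the Rn45s share given below.

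Most translation factor transcripts differed little between knockout and wild-type kidneys. Of the 59 tested members 3 rose and 2 fell, none by more than 0.66 on the log2 scale. Higher were Eif3f, a subunit of the scaffold eIF3, Eif4b, which stimulates the helicase eIF4A, and Eef1b2, the exchange factor for eEF1A. Lower were Eif4g1 and Eif4g3, both scaffolds of the cap complex. The 5 calls are 8.47% of the tested members, against 14.4% of all 13481 tested genes (limma, adjusted p under 0.05 over all tested genes). By direction, 6.16% of all tested genes were higher and 8.2% lower. For initiation, 2 of 51 were higher and 2 lower, with a median log2 difference of 0.02. For elongation, 1 of 8 was higher and none lower, with a median of 0.08. At an unadjusted p under 0.05, 3 elongation factors were higher and 0 lower. At that threshold 8 of the 59 tested members were higher and 7 lower, and 1739 of all 13481 tested genes were higher and 1969 lower. The median over all tested genes was 0.0002. Among the 42 members with a mean value of 9 or more, a level chosen after the values were seen, 11.9% were called, against 22.3% of 4003 genes at that level.

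**Figure D1:**
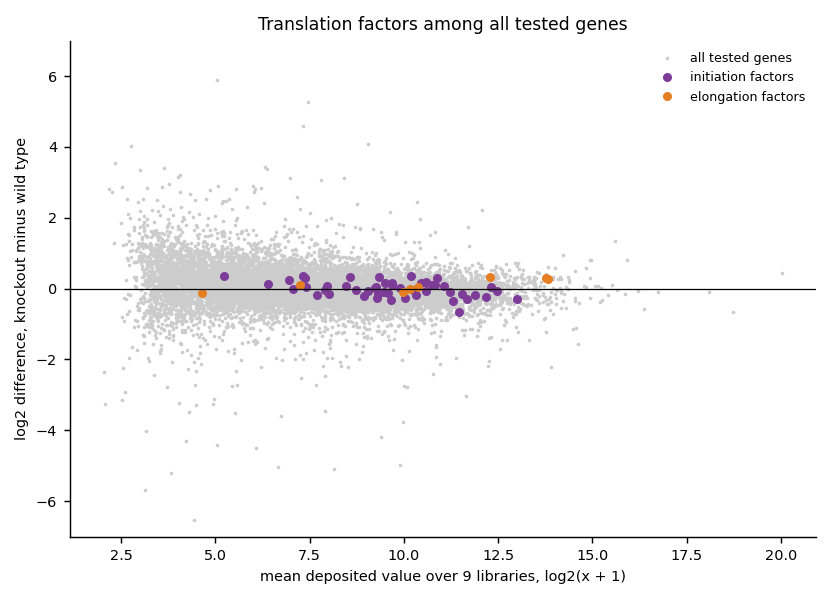
Log2 difference, knockout minus wild type, against the mean deposited value over 9 libraries for all tested genes (grey), initiation factors (purple) and elongation factors (orange). The 59 tested members lie between -0.66 and 0.37, while all tested genes reach from -6.52 to 5.89.

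Precision was high enough to bound most members. The standard error of the log2 difference was 0.09 to 0.34 over the 59 tested members, with a median of 0.11, against a median of 0.17 over all tested genes. At a mean value of 9 or more the medians were closer, 0.107 for members and 0.116 for all tested genes. For 49 members the 95% interval of the difference lay within 1.5-fold in both directions, as it did for 6101 of all 13481 tested genes. At a mean value of 9 or more this held for 40 of 42 members and 2908 of 4003 genes. The widest intervals were those of Eef2k (-0.84 to 0.59) and Eif5a2 (-0.33 to 1.04), the members with the lowest levels among those tested. Genotypes did not overlap for 6 members, Eif3f, Eif4b and Eef1b2 being higher in every knockout and Eif4g1, Eif2ak1 and Eif1 lower. That is 10.2% of the tested members, against 14.3% of all tested genes.

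**Figure D2:**
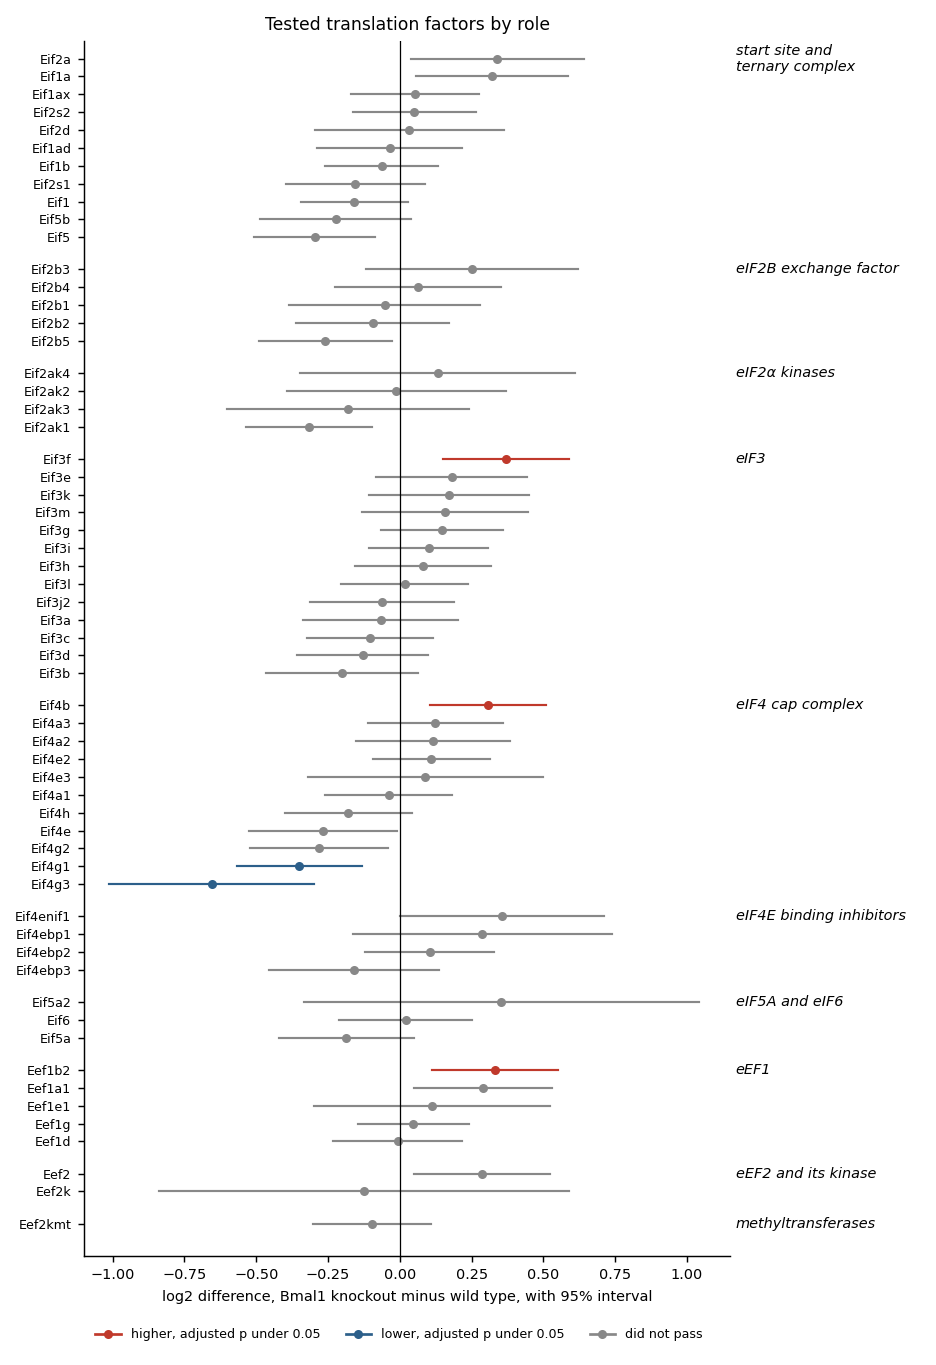
Log2 difference, knockout minus wild type (points), with its 95% interval (lines) for the 59 tested members, grouped by role. Red and blue mark the 3 members that rose and the 2 that fell; the widest intervals belong to low-level genes such as Eif5a2 and Eef2k.

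Promoter sequences show where an E-box, a sequence that Bmal1 with its partner can bind, stands near the genes that passed. RefSeq promoters on GRCm38.p6, 250 bases before to 50 after an annotated start, were found for 48 of the 62 members, including the 5 that passed. The E-box CACGTG reads the same on both strands and is in capitals in the 120 bases before the start, shown 5′ to 3′ for both called genes that hold it and for 2 called genes that do not.
Eif3f, chr7:108934295-108934414, + strand: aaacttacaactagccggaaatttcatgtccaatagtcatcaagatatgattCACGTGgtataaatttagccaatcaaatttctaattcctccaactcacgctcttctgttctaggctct
Eif4g1, chr16:20672607-20672726, + strand: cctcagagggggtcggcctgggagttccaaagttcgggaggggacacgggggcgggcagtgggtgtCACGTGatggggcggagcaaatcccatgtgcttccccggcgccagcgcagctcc
Eif4b, chr15:102073653-102073772, + strand: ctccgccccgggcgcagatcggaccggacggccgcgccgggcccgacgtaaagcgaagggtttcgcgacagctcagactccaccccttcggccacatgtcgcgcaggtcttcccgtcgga
Eef1b2, chr1:63176711-63176830, + strand: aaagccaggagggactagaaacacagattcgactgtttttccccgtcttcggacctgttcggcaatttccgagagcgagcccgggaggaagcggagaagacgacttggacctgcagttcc
Eif3f, which rose, held an E-box whose first base lies 68 bases before the start, and Eif4g1, which fell, held one 54 bases before it and another after it. The RefSeq start of Eif4g1 used here lies inside the span that GENCODE gives for the gene. Eif4b, Eef1b2 and Eif4g3 held none in the window. Members with an E-box thus included one gene that rose and one that fell.

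An E-box was in the promoter of 12 of 48 members, or 25.0%, against 11.5% of 10190 tested genes with a promoter and 8.09% of all 27025 genes in the table. Counted by promoter, it was in 14 of 63 member promoters (22.2%) and in 7.15% of all 32851. Besides Eif3f and Eif4g1, the genes were Eef2, Eef2k, Eif1b, Eif3a, Eif3k, Eif4a1, Eif4e, Eif4h, Eif5a and Eif5a2. The 12 tested members with an E-box had a median log2 difference of -0.06, with 1 higher and 1 lower. The 34 tested members without one had a median of 0.03, with 2 higher and 1 lower. A match describes letters in a window and not a bound site, and it does not tell which protein, if any, binds there.

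Messengers of several translation factors are known for a run of pyrimidines at their first base, through which the growth kinase mTOR controls their translation. A C followed by at least 4 C or T, beginning within 5 bases of the annotated start on the coding strand, was found in 12 of 48 members (25.0%) against 24.0% of tested genes with a promoter and 21.2% of all genes in the table. The run is in capitals in the 30 bases around the start, shown for Eif3f as a member that passed.
Eif3f, chr7:108934400-108934429, + strand: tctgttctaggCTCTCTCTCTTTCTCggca
Tested members with such a run had a median log2 difference of -0.07 (12 members) and those without it 0.01 (34 members), with Eif3f higher and Eif4g1 lower among the 12.

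Factors sorted by symbol under start-codon selection and the ternary complex did not pass the test. All 11 members of this role were tested, with log2 differences of -0.30 to 0.34 and a median of -0.04. Eif5, the GTPase-activating protein of eIF2, had 11.58, 11.43, 11.46, 11.47 and 11.80 in knockout and 11.77, 11.81, 11.91 and 11.89 in wild type. Knockout 5 lay inside the wild-type range and the other 4 knockouts below it. Its difference was -0.30 (SE 0.10, limma adjusted p = 0.0547). Eif2s2, the β subunit of eIF2 and the most abundant of the role, had 12.31, 12.55, 12.34, 12.37 and 12.12 in knockout and 12.22, 12.39, 12.23 and 12.31 in wild type, with overlapping ranges. The interval of its difference ran from -0.16 to 0.27. For Eif2s1, which encodes the α subunit that stress kinases phosphorylate, the interval was -0.40 to 0.09. The start-codon factor Eif1 was tightly spaced in wild type, at 11.61 to 11.64, with every knockout lower at 11.36 to 11.54 (difference -0.16, SE 0.09, adjusted p = 0.261). Eif1a and its X-linked relative Eif1ax, which both encode eIF1A, had differences of 0.32 (SE 0.13, adjusted p = 0.102) and 0.05 (SE 0.11).

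The exchange factor eIF2B, which recharges eIF2 with GTP, and the 4 kinases that shut eIF2 down had no member past the threshold. Differences of the 5 eIF2B subunits were -0.26 to 0.25. Its catalytic subunit gene Eif2b5 had 9.25, 9.12, 9.31, 9.04 and 9.13 in knockout and 9.29, 9.47, 9.61 and 9.35 in wild type. Knockout 3 was above the lowest wild type and the rest were below it (difference -0.26, SE 0.11, limma adjusted p = 0.132). The most abundant subunit gene, Eif2b2, was at 9.28 to 9.65 in knockout and 9.29 to 9.88 in wild type. Among the kinases, Eif2ak1, the heme-regulated kinase HRI, lay nearest the threshold. It had 9.65, 9.36, 9.54, 9.41 and 9.58 in knockout and 9.95, 9.79, 9.83 and 9.73 in wild type, lower in each knockout than in any wild type. Its difference was -0.32 (SE 0.10, adjusted p = 0.0501). It passed with a pseudocount of 5, without the filter, with a stricter filter and without knockout 1 (adjusted p 0.0414 to 0.0492), so this call turns on the setting. Its exons share positions with Aimp2 on the opposite strand, which had a difference of 0.15 (SE 0.14). The other 3 kinases, Eif2ak2 (PKR), Eif2ak3 (PERK) and Eif2ak4 (GCN2), had differences of -0.01, -0.18 and 0.13.

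Within eIF3, the largest initiation factor and the platform on which the others assemble, 1 of 13 tested subunits rose and none fell. That is 7.69% called, against 14.4% of all tested genes. The subunit gene that rose was Eif3f (chromosome 7, 108934417 to 108942951, + strand, GRCm38). How near Eif3f or any other member lies to the targeted gene Arntl was not examined. Eif3f had 10.247, 10.326, 10.411, 10.427 and 10.415 in knockout and 10.003, 10.081, 9.750 and 10.151 in wild type. All 5 knockouts were above all 4 wild types, and wild type 3 was the lowest of the 9. The difference was 0.37 (SE 0.10, limma adjusted p = 0.0235). It did not pass without knockout 3 (adjusted p = 0.0562), knockout 4 (0.0571) or wild type 3 (0.0911). Eif3a, the most abundant subunit gene, had 12.74, 12.46, 12.57, 12.32 and 12.16 in knockout and 12.35, 12.31, 12.76 and 12.66 in wild type, with overlapping ranges. The difference was positive for 8 of the 13 subunits and negative for 5, between -0.20 for Eif3b and 0.37 for Eif3f. Reads split between Eif3j2 and Eif3j1 are uncertain.

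The cap complex role was sorted by symbol and takes in relatives such as Eif4g2, which lacks the cap-binder site. It held 3 of the 5 members that passed, 1 higher and 2 lower among 11 tested. That is 27.3%, against 14.4% of all tested genes and 22.3% of those with a mean value of 9 or more. This level was chosen after the values were seen, and Eif4e3, with a mean of 7.97, lies below it. Eif4b (chromosome 15, 102073773 to 102097173, + strand) had 11.05, 10.94, 11.05, 11.08 and 11.01 in knockout and 10.71, 10.92, 10.60 and 10.65 in wild type. Knockouts kept within a narrow range, and wild type 2 came close to the lowest of them. The difference was 0.31 (SE 0.10, limma adjusted p = 0.0386). On leaving out any 1 library other than wild type 2 the call was lost (adjusted p 0.0513 to 0.114).

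Eif4g1 and Eif4g3 encode the scaffold that joins the cap binder to the ribosome, and Eif4g2 a relative that lacks the cap-binder site. All 3 of these genes, a grouping that is not one of the roles, had negative differences, and 2 passed. Their mean values were 11.3 to 13.0. Of the 4003 tested genes with a mean value of 9 or more, 2469 had a negative difference and 621 were called lower. Eif4g3 (chromosome 4, 137993022 to 138208508, + strand) had 11.35, 11.32, 10.81, 11.16 and 11.22 in knockout and 11.92, 11.15, 12.05 and 12.19 in wild type. Wild type 2 lay inside the knockout range, while the other 3 wild types were above every knockout. The difference was -0.66 (SE 0.17, adjusted p = 0.0138), the largest of any tested member. Without wild type 2 it was -0.88 (adjusted p = 0.000109), and without wild type 4 it did not pass (adjusted p = 0.0595). Eif4g1 (chromosome 16, 20668313 to 20692884, + strand) had 11.19, 10.99, 11.12, 11.25 and 11.25 in knockout and 11.41, 11.33, 11.71 and 11.59 in wild type, with no overlap. Its difference was -0.35 (SE 0.10, adjusted p = 0.0302). The call was lost without knockout 2 (adjusted p = 0.0820), knockout 3 (0.0687), wild type 3 (0.106) or wild type 4 (0.0896). It was also lost under each other scaling of the libraries, quantile normalization (adjusted p = 0.174), the library total (0.110), that total without Rn45s (0.138) and the upper quartile (0.0783).

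Eif4g2, also known as DAP5, which lacks the cap-binder site and serves cap-independent initiation, was the most abundant initiation factor. It had 13.03, 12.86, 12.70, 12.82 and 13.02 in knockout and 13.17, 12.88, 13.30 and 13.31 in wild type, overlapping through wild type 2. The difference was -0.28 (SE 0.11, limma adjusted p = 0.117), and -0.38 without wild type 2 (adjusted p = 0.0242). Of the 21 alternatives run, this was the 1 in which Eif4g2 passed. With the Rn45s share in the fit its difference was -0.15 (adjusted p = 0.487). Without wild type 2 the calls over all tested genes were 1011 higher and 1266 lower, against 831 and 1106 with it. The cap binder Eif4e had a difference of -0.27 (SE 0.12, adjusted p = 0.164), and -0.37 without wild type 2 (adjusted p = 0.0408). Eif4e too passed in that 1 alternative of 21. Its relatives Eif4e2 and Eif4e3 had 0.11 and 0.09. The helicase genes Eif4a1, Eif4a2 and Eif4a3 had differences of -0.04, 0.12 and 0.12, and Eif4h, a helper of the helicase like Eif4b, had -0.18 (SE 0.10).

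**Figure D3:**
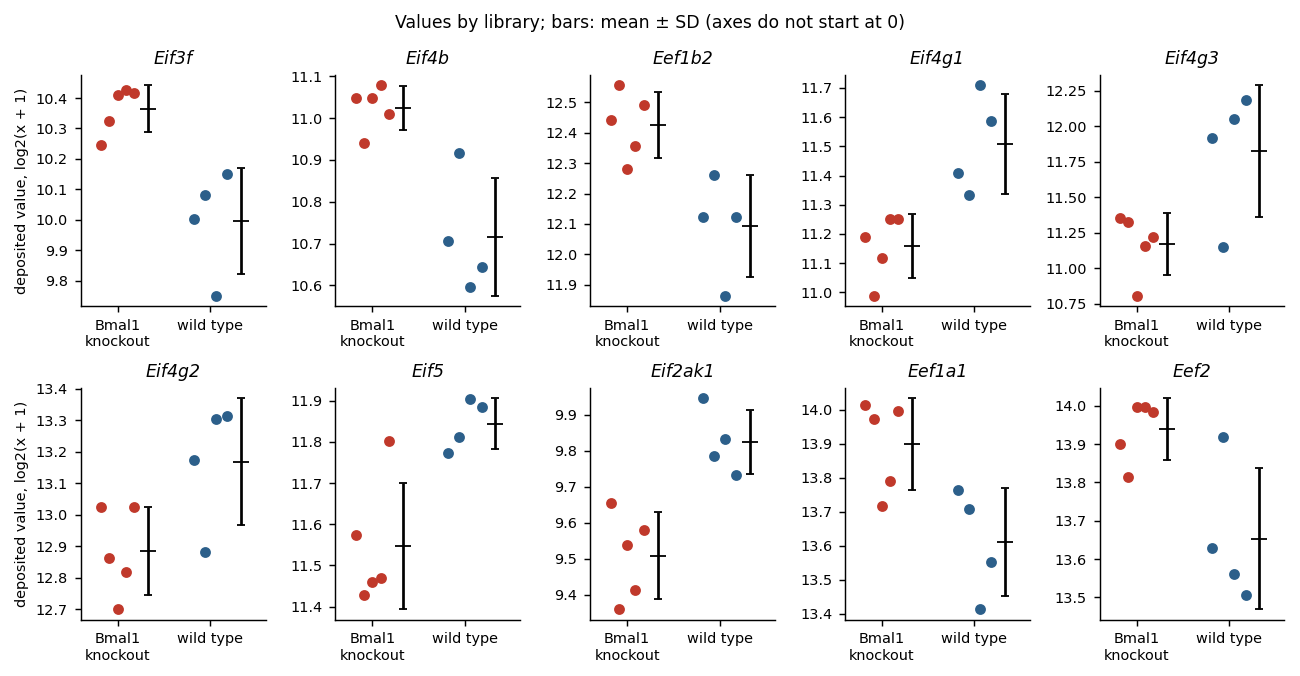
Deposited values, log2(x + 1), of 10 members in each of the 5 knockout (red) and 4 wild-type (blue) libraries, with mean and SD at the side; axes do not start at 0. Eif3f, Eif4b, Eef1b2, Eif4g1 and Eif2ak1 show no overlap, and wild type 2 lies among the knockouts for Eif4g3, Eif4g2 and Eef2.

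Inhibitors that bind eIF4E did not pass. The most abundant, Eif4ebp2, had 10.750, 10.721, 10.904, 10.880 and 10.998 in knockout and 10.649, 11.003, 10.591 and 10.743 in wild type (difference 0.10, SE 0.11). Eif4enif1, the carrier 4E-T that takes eIF4E to the nucleus and to processing bodies, had 7.15, 7.64, 7.51, 7.41 and 7.68 in knockout and 7.18, 7.42, 7.06 and 6.83 in wild type. Knockout 1 lay inside the wild-type range and knockout 4 just below wild type 2, and the difference was 0.36 (SE 0.17, limma adjusted p = 0.181). Eif4ebp1 and Eif4ebp3, which encode the other 4E-BP proteins, had differences of 0.29 (SE 0.21) and -0.16 (SE 0.14). In level the 4E-BP genes were ordered alike in both genotypes, Eif4ebp2 first, with mean values of 10.85 in knockout and 10.75 in wild type. Eif4ebp3 followed at 7.93 in knockout and 8.09 in wild type, and Eif4ebp1 at 7.50 in knockout and 7.21 in wild type. The ranges of this lower pair overlapped in knockout and not in wild type. Exons of 3 of the 62 members share positions with a coding gene on the same strand, so their counts are uncertain. These are Eif4ebp3 (with AC115631.1), Eif4e3 (with Gm20696) and Eef1d (with Naprt).

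Eif5a, the factor that carries the amino acid hypusine and relieves stalled ribosomes, had 11.77, 11.67, 11.87, 11.88 and 11.80 in knockout and 12.28, 12.07, 11.85 and 11.74 in wild type. Wild types 1 and 2 were above every knockout and the other two were among them (difference -0.19, SE 0.11, limma adjusted p = 0.302). Leaving out wild type 1 alone brought Eif5a to -0.09 (adjusted p = 0.669). Its relative Eif5a2 was far less abundant, at 4.96 to 5.90 in knockout and 4.22 to 5.73 in wild type. Eif6, which keeps the large ribosomal subunit from joining too early, had a difference of 0.02 (SE 0.11).

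Elongation factors included the most abundant members. Eef2 averaged 15720 adjusted reads in knockout and 12961 in wild type, and Eef1a1 15324 in knockout and 12556 in wild type. Together they made up 27.0% to 28.8% of all member reads in knockout libraries and 21.1% to 25.9% in wild type. The summed share of the elongation factors was 0.305% to 0.356% of adjusted reads in knockout and 0.244% to 0.278% in wild type, with no overlap. Its largest terms were Eef2 and Eef1a1, which did not pass on the deposited scale. With scaling to the library total, to which these shares refer, Eef2 passed (difference 0.34, limma adjusted p = 0.0446). On that scale Eef1a1 did not (difference 0.35, limma adjusted p = 0.0594). The median value of the tested elongation factors in each library did overlap, at 10.195 to 10.3855 in knockout and 10.182 to 10.3735 in wild type. Initiation factors took 0.540% to 0.623% in knockout and 0.547% to 0.634% in wild type. These shares describe the members and carry no test.

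Eef1b2 (chromosome 1, 63176825 to 63180486, + strand), which recharges eEF1A with GTP, was the elongation factor that passed. It had 12.44, 12.56, 12.28, 12.36 and 12.49 in knockout and 12.12, 12.26, 11.86 and 12.12 in wild type. The lowest knockout, knockout 3, was just above the highest wild type, wild type 2. The difference was 0.33 (SE 0.10, limma adjusted p = 0.0398). The call was lost on leaving out any 1 library other than knockout 3 or wild type 2 (adjusted p 0.0602 to 0.139). Ndufs1, with which it shares exon positions on the opposite strand, had -0.15 (SE 0.11), and how strand was treated in counting is not given in the sources used here. The other eEF1B subunit genes did not pass. Eef1d had a difference of -0.01 (interval -0.23 to 0.22) and Eef1g one of 0.05 (interval -0.15 to 0.24).

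Eef1a1, which delivers charged tRNAs to the ribosome, had 14.013, 13.974, 13.718, 13.791 and 13.997 in knockout and 13.765, 13.708, 13.413 and 13.553 in wild type. Knockout 3 lay below wild type 1 and above the rest. The difference was 0.29 (SE 0.11, limma adjusted p = 0.105). Many processed copies of Eef1a1 exist in the genome, so its count is uncertain. Eef2, the translocase, had 13.901, 13.813, 13.998, 13.997 and 13.984 in knockout and 13.628, 13.918, 13.560 and 13.506 in wild type, overlapping through wild type 2. Its difference was 0.29 (SE 0.11, adjusted p = 0.102), and 0.37 without wild type 2, where it passed (adjusted p = 0.0223). Eef2 passed under 6 of the 21 alternatives. Eef2k, the kinase that inactivates eEF2, was low, at 3.92 to 5.13 in knockout and 4.43 to 4.88 in wild type. Eef2kmt, which methylates eEF2, had 10.001, 9.869, 9.970, 9.830 and 9.953 in knockout and 10.024, 10.128, 10.065 and 9.869 in wild type (difference -0.10, SE 0.10). Its exons share positions with Alg1 on the opposite strand.

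None of the 5 calls held in a pair of other fits. With the Rn45s share of each library added to genotype in the fit, none of the 59 members passed (limma; smallest adjusted p 0.0982), and 10 were under an unadjusted p of 0.05. Over all tested genes that fit called 548 higher and 674 lower, against 831 and 1106 without the covariate. Differences kept their sign, at 0.31 for Eif3f, 0.25 for Eif4b, 0.32 for Eef1b2, -0.31 for Eif4g1 and -0.43 for Eif4g3. None passed either when the variance was fitted without its trend on expression level (smallest adjusted p 0.0659, 12 members at an unadjusted p under 0.05). Scaling each library to its total without Rn45s moved the median of all genes by 0.105 and the calls over all genes to 1272 higher and 695 lower. Then 7 members were higher (Eif3f, Eif4b, Eef1b2, Eef1a1, Eef2, Eif1a and Eif2a) and 1 lower (Eif4g3).

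**Figure D4:**
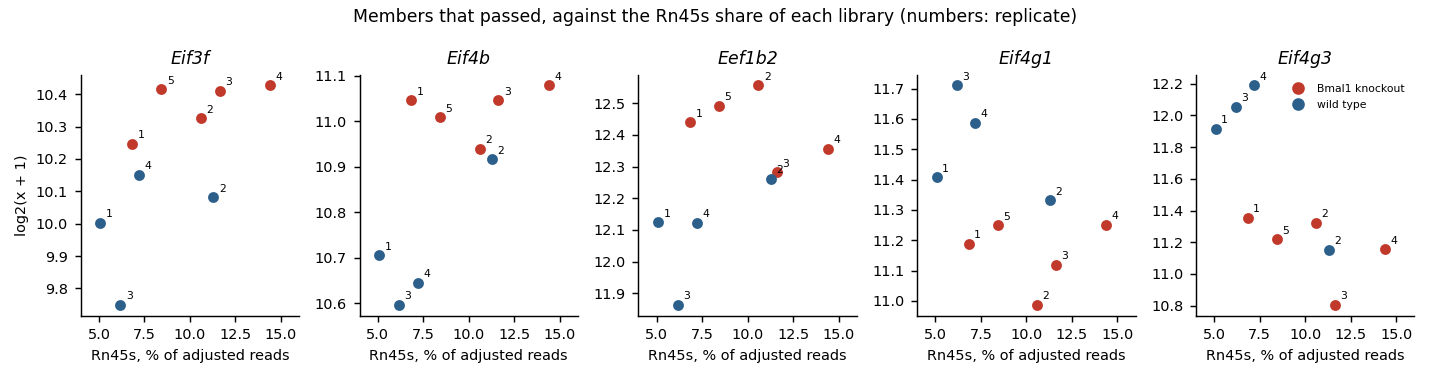
Deposited value of the 5 members that passed (y axis, log2(x + 1)) against the share of Rn45s in each library's adjusted reads (x axis, percent); numbers give the replicate, red knockout and blue wild type. Wild type 2, at 11.3% Rn45s, is the wild type nearest the knockouts for Eif4b, Eef1b2, Eif4g1 and Eif4g3.

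**Figure D5:**
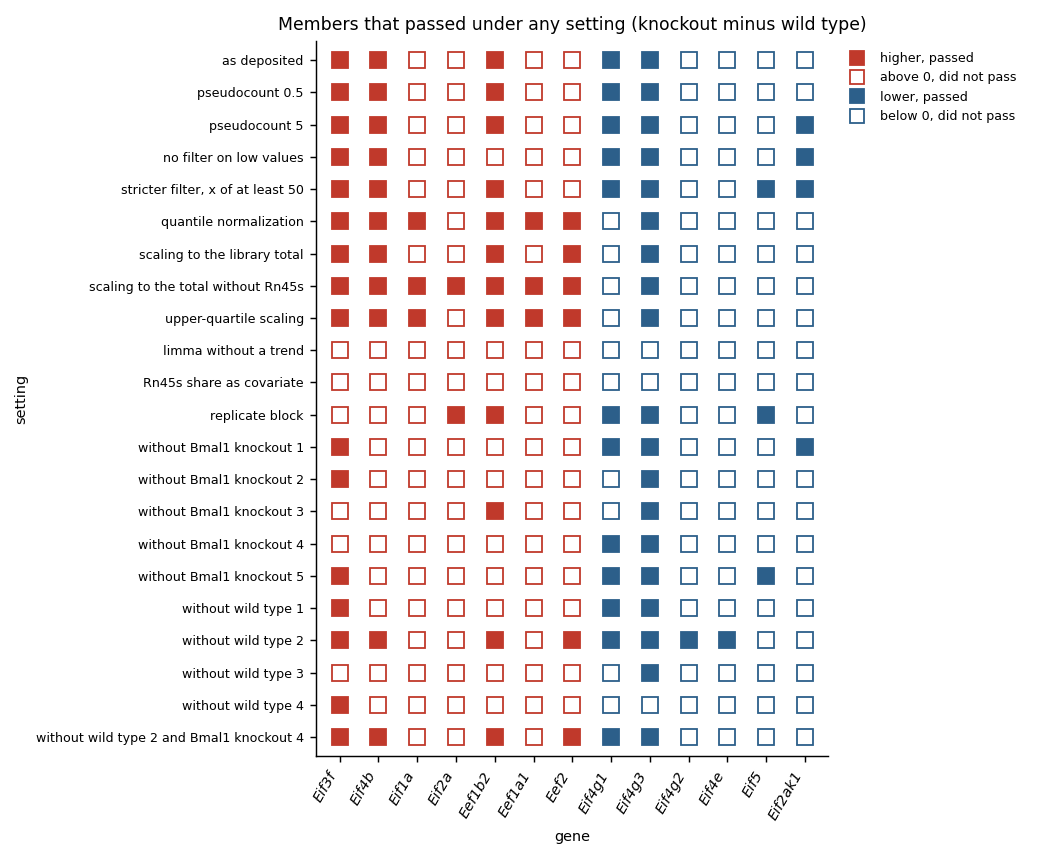
Calls as deposited and under 21 alternatives (rows) for the 13 members that passed in at least 1 of them (columns); filled squares passed at an adjusted p under 0.05, red for a difference above 0 and blue below. No square is filled in the rows for the fit without a trend and the fit with the Rn45s share.

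Other genes of translation were counted over 7 lists of 90 symbols, of which 87 were tested. Here 2 rose and 10 fell, 13.8% of those tested, against 14.4% of all tested genes, with a median log2 difference of -0.08. The decreases included the growth kinase Mtor, which acts upstream of the 4E-BP proteins. It had 9.59, 9.15, 8.97, 8.75 and 9.11 in knockout and 10.15, 10.30, 10.89 and 10.83 in wild type, lower in every knockout. Its difference was -1.43 (SE 0.17, limma adjusted p = 1.3e-05), and it passed under all 21 alternatives (adjusted p 3.24e-06 to 0.00335). Angptl7 lies on the opposite strand within the span of Mtor (chromosome 4, 148495183 to 148500460, inside 148448611 to 148557683) and had a difference of -4.40 (SE 0.59). The exons of this pair do not overlap in the annotation, and the part of Angptl7 in the result for Mtor was not tested.

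Of 19 genes of the mTOR pathway, 1 rose and 2 fell, with a median of 0.10. That is 15.8% called, against 14.4% of all tested genes. Rptor, the mTORC1 subunit that binds substrates, had a difference of -0.65 (SE 0.20, limma adjusted p = 0.0367), and the stress-induced mTOR inhibitor Ddit4, named after its value was seen, rose by 0.56 (SE 0.17, adjusted p = 0.0381). Rptor did not pass without knockout 2, 3 or 4 or wild type 3 or 4 (adjusted p 0.0731 to 0.141), and Ddit4 did not on leaving out any 1 library other than knockout 1 or wild type 2 (0.0537 to 0.137). Rptor was also lost under 7 further alternatives, among them 3 of 4 other scalings, the replicate block and the Rn45s covariate (0.05002 to 0.181). Ddit4 was lost without a filter, without a trend and with the Rn45s covariate (0.0615 to 0.265). Among 8 tested outputs and phosphatases of eIF2α phosphorylation, 1 rose and none fell, or 12.5% called. Ppp1r15a (GADD34), which brings a phosphatase to eIF2α, was 0.65 higher (SE 0.20, adjusted p = 0.0393), with 6.97, 7.46, 7.31, 7.50 and 7.72 in knockout and 6.34, 7.21, 6.48 and 6.92 in wild type. It was no longer called without any 1 library other than knockout 1 or wild type 2 (0.0526 to 0.128), nor under 5 further alternatives (0.0565 to 0.251), the Rn45s covariate giving the highest. The constitutive partner gene Ppp1r15b had -0.22 (SE 0.11, adjusted p = 0.202).

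Termination and recycling genes had a median of -0.22, and 2 of 9 fell, or 22.2%. Of all tested genes 14.4% were called and 8.2% were called lower. Hbs1l, which with Pelota rescues stalled ribosomes, had 8.36, 8.42, 8.32, 8.35 and 8.50 in knockout and 8.92, 8.90, 9.02 and 8.93 in wild type. The genotypes were well apart (difference -0.56, SE 0.11, limma adjusted p = 0.00205), and Hbs1l passed under all 21 alternatives. Gspt1, the release factor eRF3, fell by 0.35 (SE 0.10, adjusted p = 0.0287), a call lost without any 1 library other than knockout 1 or wild type 2 (0.0505 to 0.0879). Gspt1 was also lost under all 4 other scalings, without a trend and with the Rn45s covariate (0.0719 to 0.152). Of 10 cap and poly(A) binding genes 2 fell, or 20%. They were the nuclear cap binder Ncbp1 (-0.52, SE 0.14, limma adjusted p = 0.0218) and Larp1, which binds pyrimidine-tract messengers (-0.45, SE 0.13, adjusted p = 0.0224). Ncbp1 was lost without knockout 3, knockout 5 or wild type 3 (0.0546 to 0.0637) and under 4 further alternatives (0.0586 to 0.0858). Larp1 was lost without knockout 2 or 4 or wild type 3 or 4 (0.0569 to 0.0843), and under 3 of 4 other scalings, without a trend and with the Rn45s covariate (0.0601 to 0.178). With that covariate its difference was -0.26.

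Selenocysteine and mitochondrial factors had 3 of 11 lower, or 27.3%, against 14.4% of all tested genes called and 8.2% called lower. Gfm1, the mitochondrial counterpart of eEF2, had 9.05, 8.70, 8.97, 8.93 and 8.81 in knockout and 9.90, 9.44, 9.68 and 9.73 in wild type, with no overlap. Its difference was -0.79 (SE 0.12, limma adjusted p = 0.000174), and it passed under all 21 alternatives. Its exons share positions with Lxn on the opposite strand, which had 1.02 (SE 0.42). Eefsec, which delivers selenocysteine, fell by 0.56 (SE 0.16, adjusted p = 0.0220), and was lost without knockout 2, wild type 1 or wild type 2 (0.0504 to 0.0888) and under 3 further alternatives (0.0507 to 0.0574). Gfm2, the mitochondrial recycling factor, named after its value was seen, fell by 0.41 (SE 0.13, adjusted p = 0.0428) and was called, on leaving out 1 library, only without knockout 1 or knockout 5 (0.0516 to 0.108 for the other 7). It was lost under 8 further alternatives, all 4 other scalings among them (0.0567 to 0.263). Of 22 aminoacyl-tRNA synthetase and scaffold genes 1 fell, or 4.55%. This was the alanyl enzyme Aars (-0.49, SE 0.11, limma adjusted p = 0.00600), which passed under all 21 alternatives. The histidyl enzyme Hars had -0.38 (SE 0.14, adjusted p = 0.0855). None of 8 modifiers of eIF5A and eEF2 passed (limma), with 1 at an unadjusted p under 0.05; Dph1 and Dph7, of diphthamide synthesis on eEF2, had -0.38 (adjusted p = 0.170) and 0.37 (adjusted p = 0.458).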

How the data were processed

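The authors deposited 1 table per library with a log2 value for each of 23282 gene symbols, log2(x + 1) with x an adjusted read count, as read from the values; per the submitters' processing notes, Bowtie2, bedtools and the build mm10 were used, without versions. Back-transformed totals were 11765219 to 13486444; the raw depth is unknown. Such adjusted totals allow no counting interval. The sources used here name no annotation, normalization tool, strand setting or rule for shared reads.

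Symbols with x of at least 10 in 4 or more libraries (13481) entered a fit of the deposited log2 values by limma (version 3.58.1, under R 4.3.3), genotype as the single term, moderated two-sided test with a mean-variance trend, and Benjamini-Hochberg adjustment over all tested genes. Differences are knockout minus wild type. The fit was tested on simulated data. Positions are from GENCODE M21 (GRCm38), and promoters from RefSeq (GRCm38.p6).

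The members, roles and lists were chosen with earlier results of these data known. Named with values were members that passed, in each role the most abundant and that with the smallest adjusted p, and of each other list the 2 with the smallest adjusted p; other members are described by ranges or named after their values were seen. A total of 21 alternatives were run.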

Additional observations from a re-analysis of the deposited data

Results flagged for a closer look

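Gspt1, which encodes the release factor eRF3, was at 10.15 to 10.26 in the knockouts. In wild type it was at 10.629 to 10.674 in 3 libraries and at 10.288 in wild type 2, which is far from the others of its genotype. It was the single such value among 68 groups of libraries examined for the named genes, and chance flags about 1 in 20 groups. A count of 1 flag among 68 groups is below that rate. Wild type 2 also had the highest Rn45s share of the wild types, and the part of that share in this value was not tested.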

How the results depend on the processing

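As deposited, 2 initiation factors were higher and 2 lower, 1 elongation factor was higher and 0 lower, and 2 of the other translation genes were higher and 10 lower. Counts this small move easily. Initiation factors higher numbered 4 with scaling to the total without Rn45s, 0 without a trend or with the Rn45s share as a covariate, and 1 with the replicate block. Initiation factors lower numbered 4 with the stricter filter (x of at least 50), 1 with quantile normalization, scaling to the total, to the total without Rn45s or to the upper quartile, and 0 without a trend or with the Rn45s covariate. Elongation factors higher numbered 0 without a filter, 3 with quantile normalization, the total without Rn45s or the upper quartile, 2 with the library total or without wild type 2 and knockout 4, and 0 without a trend or with the Rn45s covariate. Other translation genes higher numbered 0 without a filter, 5 with the total without Rn45s, 1 without a trend, 0 with the Rn45s covariate and 1 with the replicate block. Those lower numbered 6 with quantile normalization, the library total, no trend, or without wild type 2 and knockout 4, 4 with the total without Rn45s and 5 with the Rn45s covariate. The cause was not tested.

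Leaving out 1 library at a time gave 0 to 2 initiation factors higher and 0 to 4 lower, 0 to 2 elongation factors higher, and 0 to 2 other translation genes higher and 5 to 12 lower. No elongation factor was lower under any alternative run. Same-numbered libraries of the genotypes were not treated as pairs in the main fit. Their deviations from the genotype means correlated at 0.151, 0.000909, -0.00701 and 0.0407. Libraries with different numbers were not compared in this way, so these values cannot tell whether the numbers mark pairs. With the number as a replicate block in 8 libraries, 5 members passed, 2 higher (Eef1b2 and Eif2a) and 3 lower (Eif4g1, Eif4g3 and Eif5). Over all tested genes the called were 740 higher and 999 lower. Among named genes no value that passed changed sign. The raw depth is unknown, which limits members near the floor such as Eef1a2 and Eif3j1.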
